A study of Homo sapiens with 18 samples.

Results

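The hypoxia response and glycolysis genes were 40 human genes taken by symbol from the table of 57445 genes: the subunits and oxygen sensors of the hypoxia-inducible factor (HIF), targets that HIF is known to induce, and the enzymes and transporters that carry glucose to lactate. The rule names them by symbol and uses no expression value, although it was written with earlier results of these data known, and all 40 symbols were found in the table. Their RNA was sequenced in MiaPaCa-2, a human pancreatic cancer cell line that the labels give as wild type in every group, with 18 libraries in all. The study models perineural invasion, the growth of tumour cells along a nerve, by injecting the cells into the sciatic nerve. Each of 6 groups held 3 libraries. Laggers of passage 1 and leaders of passage 1 were recovered after 1 injection, and their names come from the labels. The sources used here do not give the distance along the nerve that separates them. Leaders of passages 2, 3 and 4 came from leader cells that were grown in culture, injected again and collected again as leaders. Parental cells were kept in vitro and never injected. The sources used here give neither the host animal and the number of animals nor whether RNA was taken at harvest or after regrowth. Nerve passage, selection and culture after harvest therefore cannot be told apart in any comparison with the parental line. Nothing states that the 3 libraries of a group came from separate animals or cultures, so a p-value here reflects the spread among 3 libraries that may be technical repeats.

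HIF is a transcription factor made of an oxygen-regulated alpha subunit, encoded by HIF1A or EPAS1, and a stable beta subunit. With oxygen present, the prolyl hydroxylases encoded by EGLN1 and EGLN3 mark the alpha subunit for destruction through the von Hippel-Lindau protein, so HIF activity is set largely at the protein level and not by the mRNA of its subunits. When oxygen falls, HIF binds short promoter and enhancer elements and raises genes for glucose uptake, glycolysis, lactate and proton export, blood vessel growth and mitophagy. Many tumour cells, pancreatic cancer cells among them, also run glycolysis at a high rate with oxygen present.

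The core of the HIF binding element is ACGTG or GCGTG, and both were searched on both strands in the promoters that RefSeq (GRCh38.p14) gives for these genes, each the 250 bases before to the 50 bases after a transcript start. The tables held 58 promoters of 35 of the 40 genes. At least 1 match occurred in 43 of the 58 promoters (74.1%), and in 48.4% of all 35116 promoters of the same length. ACGTG alone, the commoner of the 2 forms in known elements, occurred in 41.4% of the 58 promoters and in 21.4% of all promoters. The list was chosen to hold known HIF targets, so these shares are a description and not a test. A gene with several transcript starts counts several times among the 58. The sequences below are shown because the results turn on these genes: ADM, ANKRD37, DDIT4 and EGLN3 stood above the parental line in the injected groups, LDHA did so in the leaders, and PKM stood below it until passage 4. They are written 5′ to 3′ on the strand of the gene, with matches in capitals; CACGTG holds a match on each strand and counts as 2. The ADM window is chr11:10304823-10305122 on the plus strand (1 match), ANKRD37 is chr4:185396591-185396890 on the plus strand (3 matches), and DDIT4 is chr10:72273674-72273973 on the plus strand (4 matches). EGLN3 is chr14:33951025-33951324 on the minus strand and held 0 matches, and PKM is chr15:72231141-72231440 on the minus strand (1 match). LDHA has a window at chr11:18394313-18394612 on the plus strand (6 matches) and another at chr11:18396101-18396400 (1 match). A match is a description of these letters, and no binding was measured.
ADM: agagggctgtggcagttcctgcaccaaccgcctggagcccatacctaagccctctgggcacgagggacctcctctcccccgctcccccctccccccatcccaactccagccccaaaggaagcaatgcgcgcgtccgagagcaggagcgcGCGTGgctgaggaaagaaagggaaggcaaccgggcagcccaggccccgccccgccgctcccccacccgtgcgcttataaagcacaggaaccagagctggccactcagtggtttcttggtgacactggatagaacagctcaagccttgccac
ANKRD37: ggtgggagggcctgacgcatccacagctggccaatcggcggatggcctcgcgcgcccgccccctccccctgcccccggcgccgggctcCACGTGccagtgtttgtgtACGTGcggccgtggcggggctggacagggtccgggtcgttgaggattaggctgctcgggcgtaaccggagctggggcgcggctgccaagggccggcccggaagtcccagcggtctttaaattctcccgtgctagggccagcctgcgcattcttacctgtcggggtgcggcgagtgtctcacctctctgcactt
DDIT4: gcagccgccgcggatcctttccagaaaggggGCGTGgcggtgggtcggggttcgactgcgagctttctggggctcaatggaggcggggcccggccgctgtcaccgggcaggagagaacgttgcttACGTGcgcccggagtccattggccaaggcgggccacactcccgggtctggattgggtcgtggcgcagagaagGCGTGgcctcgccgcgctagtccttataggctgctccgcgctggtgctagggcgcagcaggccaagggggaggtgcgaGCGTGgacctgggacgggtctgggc
EGLN3: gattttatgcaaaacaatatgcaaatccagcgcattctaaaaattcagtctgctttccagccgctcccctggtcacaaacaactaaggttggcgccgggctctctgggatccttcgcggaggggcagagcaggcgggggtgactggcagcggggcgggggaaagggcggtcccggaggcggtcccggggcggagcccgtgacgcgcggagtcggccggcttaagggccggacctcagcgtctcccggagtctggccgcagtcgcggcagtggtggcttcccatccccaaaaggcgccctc
PKM: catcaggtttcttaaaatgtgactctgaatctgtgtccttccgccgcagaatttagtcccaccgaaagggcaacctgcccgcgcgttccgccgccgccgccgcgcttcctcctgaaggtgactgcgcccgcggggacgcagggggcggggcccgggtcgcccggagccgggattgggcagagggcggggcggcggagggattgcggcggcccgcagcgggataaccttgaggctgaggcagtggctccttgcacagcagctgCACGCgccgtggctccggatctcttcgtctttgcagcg
LDHA, first window: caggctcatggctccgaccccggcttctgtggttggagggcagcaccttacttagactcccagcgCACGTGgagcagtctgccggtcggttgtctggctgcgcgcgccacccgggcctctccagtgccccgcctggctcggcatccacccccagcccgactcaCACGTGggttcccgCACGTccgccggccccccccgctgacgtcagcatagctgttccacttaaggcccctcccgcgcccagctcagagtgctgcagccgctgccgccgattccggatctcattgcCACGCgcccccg
LDHA, second window: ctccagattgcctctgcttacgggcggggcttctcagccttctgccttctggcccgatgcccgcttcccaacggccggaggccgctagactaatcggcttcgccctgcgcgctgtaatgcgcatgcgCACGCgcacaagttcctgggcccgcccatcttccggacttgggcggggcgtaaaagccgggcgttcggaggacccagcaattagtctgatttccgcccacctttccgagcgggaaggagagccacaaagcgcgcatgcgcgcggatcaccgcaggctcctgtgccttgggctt

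Gene counts summed to between 15113462 and 39373248 per library, and levels below are CPM, counts scaled to a common library total, on library sizes scaled by trimmed mean of M-values (TMM). Keratins KRT8 and KRT18 and vimentin were abundant in all 18 libraries, and CDKN2A and EPCAM did not exceed 0.443 CPM in any. Both keratins were called higher in each injected group. KRT8 stood at 4359 to 12278 CPM in injected libraries and 1910 to 3124 CPM in parental ones. CDH1 was called higher in leaders of passages 1, 2 and 3. It stood at 0.872 to 14.4 CPM at passage 1, against 0 CPM in the parental line. The injected libraries differed from the parental ones in more than the hypoxia and glycolysis genes. Mitochondrially encoded genes took 1.948 to 8.575% of gene counts in injected libraries and 0.472 to 0.873% in parental ones. The share of reads with several alignments was 20.16 to 32.59% in injected libraries and 13.93 to 16.39% in parental ones. Among markers of other cell types, the summed level of the 10 fibroblast markers was 1274 to 2155 CPM in laggers, 1009 to 2311, 739 to 1504, 550 to 1336 and 234 to 496 CPM in leaders of passages 1, 2, 3 and 4, and 119 to 253 CPM in the parental line. Of its 8 tested genes, COL1A2, COL3A1 and PDGFRA were called higher in each injected group, and DCN and LUM in laggers and passage 1 leaders. COL1A2 and COL3A1 made up most of the sum in the injected libraries. In the parental line COL1A1 did, at 111, 128 and 240 CPM. DCN stood at 4.97 to 12 CPM in laggers and 0.594 to 6.4 CPM in passage 1 leaders, and at most 0.334 CPM in later leaders, against at most 0.562 CPM in parental cells. PDGFRA reached 47.6 to 92.3 CPM at passage 2, against at most 0.274 CPM in the parental line. COL1A1 was called lower at passages 1 and 4, and FAP did not exceed 0.0938 CPM in any library. The Schwann cell list summed to 34.1 to 98.2 CPM in injected libraries and 241 to 291 CPM in parental ones, a difference that lay in MBP (1.82 to 51.1 CPM in injected libraries and 200 to 235 CPM in parental ones), while its markers S100B and SOX10 did not exceed 0.383 CPM in any library. CDH19 went the other way from MBP, at 0 CPM in the parental line. It was called higher in laggers (0.21 to 2.97 CPM) and passage 1 leaders (0 to 2.2 CPM), and the lagger call ended without lagger replicate 2. ERBB3 was called lower in laggers, at 0 to 0.24 CPM against 5.15 to 8.1 CPM in the parental line. The endothelial list stayed at or under 13.5 CPM and the leukocyte list at or under 35.1 CPM, with its highest sums in passage 4 leaders, where ITGAM held 9.51 to 34.8 CPM. PTPRC was called higher in leaders of each passage, at 0 to 4.86 CPM against 0 CPM in laggers and the parental line. CD68 was called lower in leaders of each passage, at 0.0661 to 0.387 CPM against 0.511 to 0.962 CPM in the parental line. Replicate 2 of the passage 3 leaders held 21021 CPM of red blood cell transcripts, and no other library exceeded 3.29 CPM. That library, lagger replicate 3 and parental replicate 3 leaned most to GC-rich genes. Results were also computed without these 3 GC-leaning libraries, a choice made after their values were seen. The part of these differences in the results below was not tested, and in bulk RNA fewer cells of a type and less RNA per cell cannot be told apart. The kit does not mark strand, so reads of a gene and of an antisense partner cannot be told apart.

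Against the parental line, the genes split by role. Most called secreted and signalling targets of HIF were higher in the injected cells. Most called enzymes of glycolysis were lower in laggers and leaders of passages 1 to 3. Of 10 tested targets, 4 were higher and 1 lower in laggers. In passage 1 to 4 leaders, 7, 6, 7 and 6 were higher and 0 lower. At passage 4, 2 of 15 enzymes were lower and 1 higher. With a correction for GC content and length of genes, 4 enzymes were higher and 2 lower there. The shares of all tested genes follow. Of the 40 genes, 39 had enough counts to be tested; STC2, a secreted glycoprotein, had between 0 and 3 counts per group. A gene was called where the edgeR quasi-likelihood test gave a Benjamini-Hochberg adjusted p under 0.05 over all 16187 genes tested. In laggers 6 members were higher and 13 lower, where 21.5% and 17.8% of all tested genes were called in those directions, so the share of members higher (15.4%) lay under that of all genes and the share lower (33.3%) above it. In passage 1 leaders 13 were higher and 10 lower (background 23.2% and 22.4%). In passage 2 leaders 11 were higher and 9 lower (background 15.1% and 14.8%), and in passage 3 leaders 10 were higher and 8 lower (background 13.8% and 10.8%). In passage 4 leaders 9 were higher and 5 lower (background 14.8% and 12.9%). The median log2 fold change of the members lay close to that of all tested genes throughout: −0.13 against 0.09 in laggers, then −0.03 against 0.07, −0.04 against 0.00, −0.02 against 0.01 and 0.10 against 0.03 in passage 1 to 4 leaders. All 5 comparisons share the same 3 parental libraries, so a gene called in several of them does not give independent results, and the values are set side by side. With only the lagger and parental libraries in the fit, 11 members in place of 19 were called in the laggers.

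**Figure D1:**
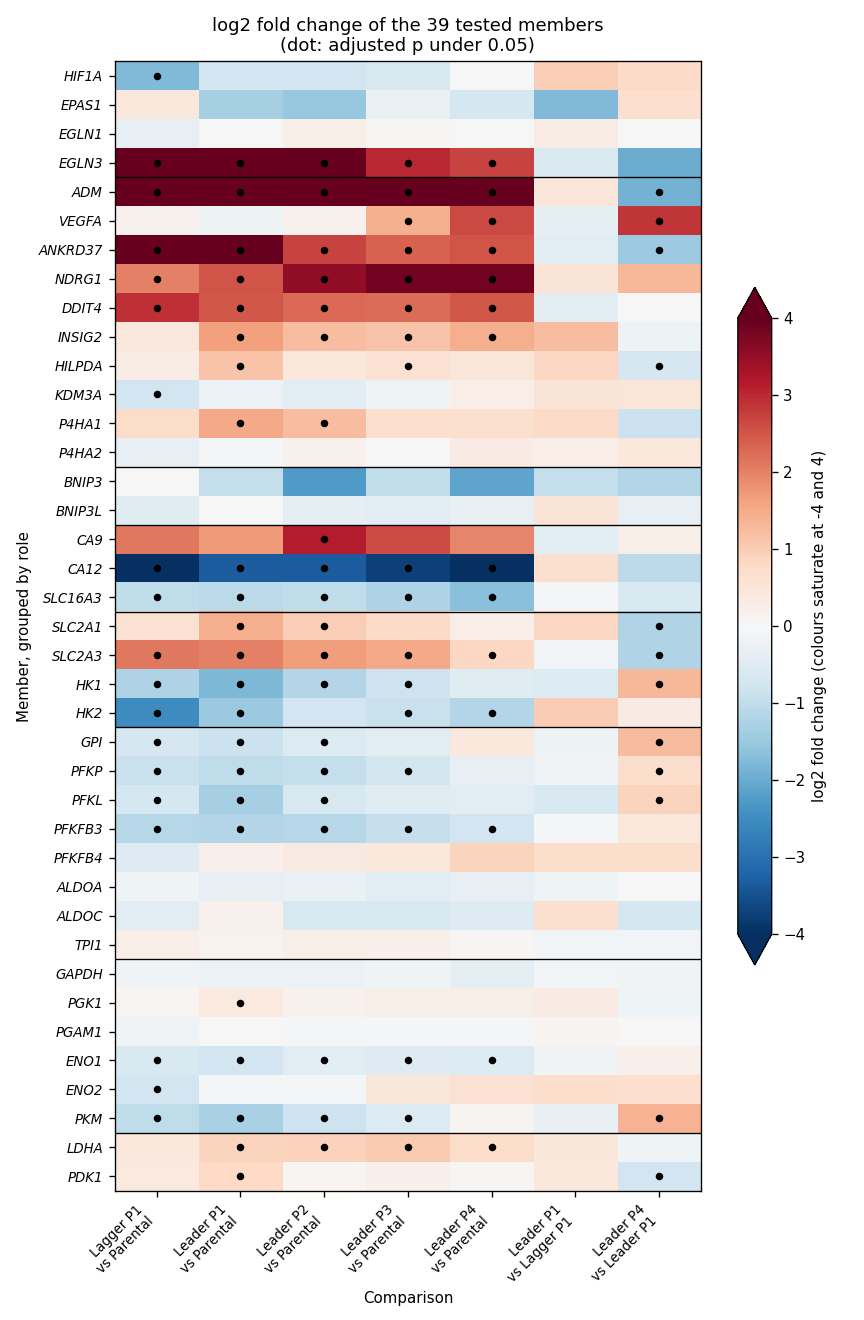
Log2 fold change (colour, saturating at −4 and 4) of the 39 tested genes, ordered by role, in 7 comparisons; a dot marks an adjusted p under 0.05 in edgeR. ADM, ANKRD37, EGLN3, DDIT4 and NDRG1 are red against the parental line in each injected group, CA12 is blue in each, and the column of passage 1 leaders against laggers holds no dot.

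The largest increases were in ADM, which encodes the vasodilator peptide adrenomedullin. ADM stood at 97.9, 95.7 and 199 CPM in laggers and at 218, 103 and 231 CPM in passage 1 leaders. The later leaders held 43.4, 35.9 and 64.3 CPM at passage 2, 33.9, 41.1 and 42.2 CPM at passage 3 and 43.3, 52.4 and 52 CPM at passage 4, against 1.54, 0.562 and 2.4 CPM in the parental line. Every injected library lay above every parental library, and the passage 1 cells of both kinds lay above the later leaders. The log2 fold change over the parental line was 6.46 ± 0.51 (SE, adjusted p = 3.21e-07) in laggers and 6.96 ± 0.53 (adjusted p = 2.07e-07) in passage 1 leaders, and 5.01, 4.72 and 5.05 in passages 2, 3 and 4 (adjusted p at most 6.07e-06).

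ANKRD37, an ankyrin repeat protein known as a HIF-1 target, was also highest in the passage 1 cells of both kinds. Its levels were 29.6, 54.9 and 47.3 CPM in laggers and 22.1, 39.4 and 36 CPM in passage 1 leaders. The leaders held 11.3, 13.5 and 14.7 CPM at passage 2 and 9.9, 10.5 and 10.9 CPM at passage 3, and 12.5, 13 and 9.81 CPM at passage 4, against 1.84, 2.22 and 2.07 CPM in parental cells. No injected library reached down to the parental range. Log2 fold changes were 4.42 ± 0.29 in laggers and 3.99 ± 0.28, 2.69 ± 0.27, 2.35 ± 0.27 and 2.52 ± 0.27 in passage 1 to 4 leaders (edgeR adjusted p at most 1.58e-05). With offsets that correct each library for the GC content and length of genes (GC offsets), the values of passages 1, 2 and 4 became 3.01, 2.04 and 1.92 and stayed called.

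EGLN3, the HIF prolyl hydroxylase that is itself induced by HIF, was nearly silent in the parental line. It stood at 9.4, 2.87 and 2.66 CPM in laggers and at 3.28, 3.86 and 2.91 CPM in passage 1 leaders. Later leaders gave 2, 1.45 and 3.1 CPM (passage 2), 1.16, 1.49 and 0.463 CPM (passage 3) and 1.34, 0.333 and 0.826 CPM (passage 4), against 0.224, 0.128 and 0 CPM in parental cells. The parental libraries held 14 counts in all, so the folds are loose: the ratio of summed counts scaled by library size was 40.1 in laggers (95% interval 23.5 to 74.2, counting error only) and 6.24 in passage 4 leaders (3.46 to 12.1). All injected libraries exceeded the parental ones. Fitted log2 fold changes were 5.27, 4.70, 4.09, 3.0 and 2.69 in laggers and leaders of passages 1 to 4 (adjusted p from 0.000157 to 0.018). The passage 4 call ended without replicate 1 of passage 4 (adjusted p = 0.0779) or parental replicate 3 (0.0548), and the passage 3 call ended without the 3 GC-leaning libraries (log2 fold change 2.18, adjusted p = 0.0643). Without parental replicate 1 the values were 5.99 in laggers and 5.40, 4.82, 3.72 and 3.39 in passage 1 to 4 leaders, and without lagger replicate 1 that of the laggers was 4.40.

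DDIT4, which encodes an inhibitor of mTORC1 signalling induced by hypoxia and other stresses, was higher in each injected group. Its levels were 518, 702 and 917 CPM in laggers and 475, 584 and 510 CPM in passage 1 leaders. Values were 440, 466 and 447 CPM at passage 2, 350, 554 and 426 CPM at passage 3 and 470, 563 and 543 CPM at passage 4, against 89.8, 68.5 and 123 CPM in the parental line. The injected and parental ranges did not overlap, and the leaders stayed within one range across passages. Over the parental line, log2 fold changes were 2.92 ± 0.25 in laggers and 2.48, 2.26, 2.24 and 2.48 (each ± 0.24) in passage 1 to 4 leaders (edgeR adjusted p at most 1.02e-05).

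NDRG1, a differentiation- and hypoxia-linked gene whose product acts in membrane trafficking and in peripheral nerve myelination, had its highest level in later leaders. It stood at 2.65, 32.3 and 20.3 CPM in laggers and at 40.9, 22.4 and 15.2 CPM in passage 1 leaders. The later leaders held 43.2, 62.1 and 56.1 CPM at passage 2, 72, 66.5 and 59.6 CPM at passage 3 and 66, 68.3 and 63 CPM at passage 4, against 3.23, 2.27 and 8.29 CPM in parental cells. Lagger replicate 1 lay inside the parental range, and every leader library lay above it. The log2 fold changes over parental cells were 2.01 ± 0.62 in laggers (adjusted p = 0.0177) and 2.52, 3.56, 3.85 and 3.85 in passage 1 to 4 leaders (adjusted p at most 0.00417). The lagger call ended without lagger replicate 2 (adjusted p = 0.122), parental replicate 1 (0.0675) or parental replicate 2 (0.0712), and with only those 2 groups in the fit (0.113). Without parental replicate 3 the values were 2.73 in laggers and 3.24, 4.28, 4.58 and 4.57 in passage 1 to 4 leaders.

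**Figure D2:**
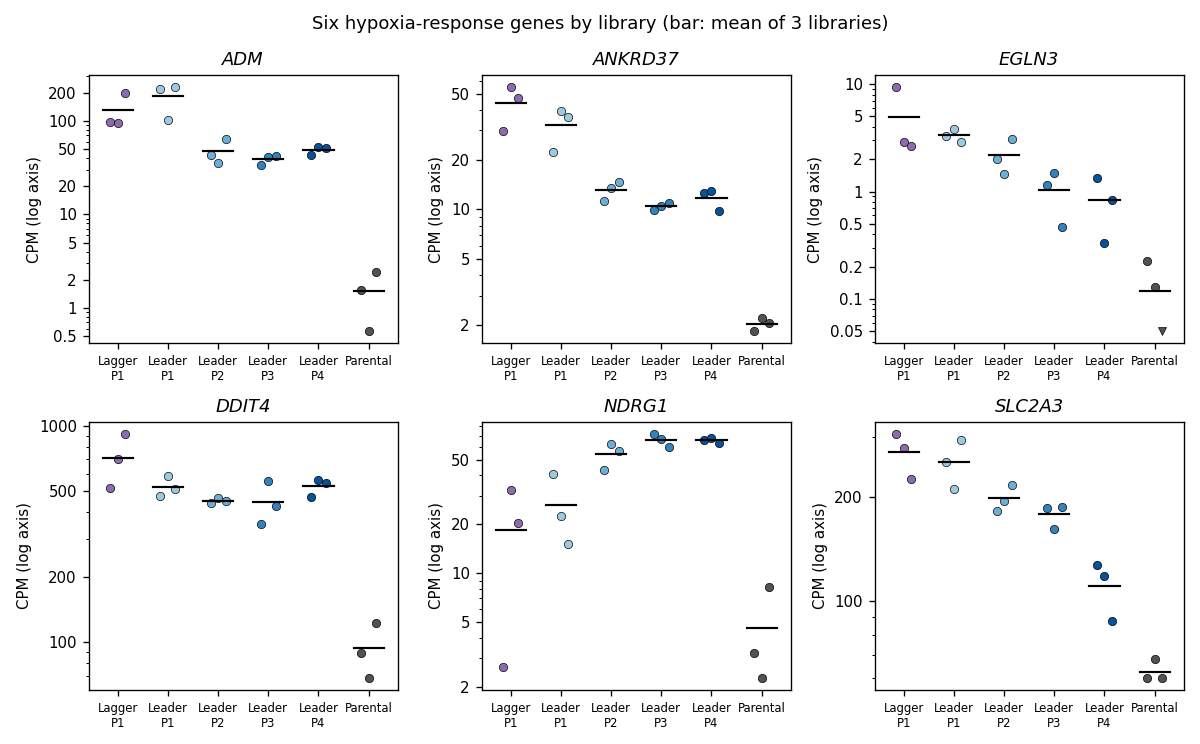
Level in CPM (log axis) of ADM, ANKRD37, EGLN3, DDIT4, NDRG1 and SLC2A3 in each of the 18 libraries; points are libraries, bars are means of 3, and the triangle stands for parental replicate 3 of EGLN3, at 0 CPM and drawn at the foot of the axis. For ADM, ANKRD37, EGLN3, DDIT4 and SLC2A3 every injected library lies above every parental one, and for NDRG1 lagger replicate 1 is the exception.

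VEGFA, the vascular endothelial growth factor and the best known angiogenic HIF target, did not follow ADM. Its levels were 43.3, 87.3 and 79.6 CPM in laggers and 60.9, 47.4 and 52.1 CPM in passage 1 leaders. The leaders held 52.7, 85.6 and 71.7 CPM at passage 2 and 179, 160 and 164 CPM at passage 3, and 236, 328 and 598 CPM at passage 4, against 57.3, 52 and 76.7 CPM in the parental line. Laggers and leaders of passages 1 and 2 overlapped the parental range, the passage 3 leaders lay above it, and the passage 4 leaders lay above all other libraries. On the log2 scale, the differences from parental cells were 0.18 ± 0.31, −0.21 ± 0.31 and 0.18 ± 0.31 in laggers, passage 1 and passage 2 leaders (adjusted p at least 0.597, not called), 1.43 ± 0.31 in passage 3 (edgeR adjusted p = 0.0037) and 2.64 ± 0.33 in passage 4 (3.36e-05). The sign at passage 1 depended on the processing: it was 0.50 with offsets for GC content and 0.03 without the 3 GC-leaning libraries, called in neither.

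Among the other secreted and signalling targets, INSIG2, which holds the sterol sensor SCAP in the endoplasmic reticulum, stood at 29.4, 23.3 and 9.45 CPM in laggers and at 20.4 to 54.3 CPM over the 12 leader libraries, against 16.6, 23.3 and 6.95 CPM in parental cells. Laggers overlapped the parental range and so did replicate 2 of passage 3. Its log2 fold change was 0.41 in laggers (not called) and 1.65, 1.23, 1.15 and 1.44 in passage 1 to 4 leaders (edgeR adjusted p = 0.00405, 0.0329, 0.0497 and 0.0161). The calls of passages 2 and 3 ended without parental replicate 1 or 3 (adjusted p 0.0788 to 0.184) and without several leader libraries (any of passage 2, and replicate 1 or 3 of passage 3; up to 0.209), and the passage 4 call without parental replicate 1 (0.0508) or 3 (0.067). The passage 3 call also ended with only the compared groups (0.107) and without mitochondrially encoded genes (0.0566). P4HA1, a collagen prolyl 4-hydroxylase subunit, was higher in leaders of passages 1 and 2 (1.51, adjusted p = 0.00522, and 1.23, adjusted p = 0.0262), and its passage 2 call ended without any 1 library of passage 2 or without parental replicate 1 or 3 (adjusted p up to 0.12). P4HA1 was also called higher in laggers with GC offsets (0.65, 0.0185) and without the 3 GC-leaning libraries (0.88, 0.00316), and at passage 3 without those libraries (0.73, 0.0156). The related subunit P4HA2 was called in no comparison.

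HILPDA, a lipid droplet protein that slows fat breakdown in hypoxia, stood at 25.9, 31.3 and 34.6 CPM in laggers and 42.8, 69.2 and 50.7 CPM in passage 1 leaders, against 26.9, 22 and 25 CPM in the parental line. Laggers overlapped the parental range, and passage 1 leaders lay above both. It rose in passage 1 leaders (log2 fold change 1.14 ± 0.20, edgeR adjusted p = 0.000325, and 0.51 with offsets for GC content, still called) and was called at passage 3 (0.61, adjusted p = 0.0359). The passage 3 call ended without replicate 1 or 2 of passage 3 or any 1 parental library (adjusted p 0.0543 to 0.161), with GC offsets (0.23, adjusted p = 0.272), without the filter on low counts (0.164), with only the compared groups (0.117) and without the 3 GC-leaning libraries (0.0797). KDM3A, a histone demethylase, was lower in laggers (−0.76, adjusted p = 0.0321), and that call ended without lagger replicate 2 or 3 or parental replicate 1 or 2 (adjusted p 0.059 to 0.155), with only the compared groups (0.0995) and without the 3 GC-leaning libraries (0.081). The mitophagy receptor BNIP3L was called in no comparison, although GC offsets gave it −0.63, −0.56 and −0.52 at passages 2, 3 and 4 (adjusted p at most 0.0189) and it was called at passage 2 without the 3 GC-leaning libraries (−0.63, 0.0358), and its relative BNIP3 held 101 counts over all 18 libraries, which leaves BNIP3 without a usable level here.

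The HIF subunits themselves were called higher in no injected group. HIF1A stood at 138, 173 and 102 CPM in laggers and at 347, 165 and 308 CPM in passage 1 leaders. Later leaders gave 272, 230 and 332 CPM (passage 2), 342, 190 and 389 CPM (passage 3) and 440, 514 and 450 CPM (passage 4), against 466, 628 and 317 CPM in the parental line. All 3 laggers lay below all parental libraries, the leaders of passages 1, 2 and 3 overlapped the lowest parental library, and the passage 4 leaders lay within the parental range. HIF1A fell in laggers (log2 fold change −1.77 ± 0.32, edgeR adjusted p = 0.000509), while leaders gave −0.78 (adjusted p = 0.0521), −0.76 (0.0789), −0.62 (0.168) and −0.01 (0.995) at passages 1 to 4. HIF1A was also called lower at passage 1 by DESeq2 (−0.75, 0.0489), and at passages 1 and 2 without the filter on low counts (−0.83, 0.0282, and −0.81, 0.0462) and without the 3 GC-leaning libraries (−0.94, 0.0115, and −0.95, 0.018). With GC offsets it was called lower at passages 1, 2 and 3 (−1.21, −1.14 and −0.78, adjusted p = 0.000737, 0.00184 and 0.0208). EPAS1, which encodes HIF-2 alpha, was low, at 1.56, 27.3 and 10.1 CPM in laggers and at 4.49, 2.62 and 4.4 CPM in passage 1 leaders. Values were 3.87, 3.75 and 2.69 CPM at passage 2, 10.5, 4.96 and 9.12 CPM at passage 3 and 3.44, 3.75 and 11 CPM at passage 4, against 6.89, 7.84 and 14.6 CPM in parental cells. The laggers alone spanned the whole parental range, and EPAS1 was called in no comparison, except at passages 1 and 2 with only the compared groups in the fit (−1.34, 0.0224, and −1.47, 0.0137); in laggers its sign turned without lagger replicate 2 (−0.76 in place of 0.41). EGLN1, the main oxygen-sensing hydroxylase, ranged from 142 to 265 CPM over all libraries and was called in none.

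Of the genes for pH control and lactate export, CA12 had the largest decrease of any member. CA12, a membrane carbonic anhydrase, stood at 1.04, 0.479 and 2.31 CPM in laggers and at 2.87, 0.891 and 2.12 CPM in passage 1 leaders. The later leaders held 2.2, 2.72 and 0.959 CPM at passage 2, 2.27, 0.64 and 1.55 CPM at passage 3 and 1.12, 0.166 and 1.55 CPM at passage 4, against 19, 17.8 and 22.7 CPM in the parental line. Injected and parental ranges were far apart. Log2 fold changes were −3.98 ± 0.73 in laggers and −3.33, −3.34, −3.73 and −4.37 in passage 1 to 4 leaders (edgeR adjusted p at most 0.00213), and the lagger value was −4.64 without lagger replicate 3. CA9, the carbonic anhydrase used as a marker of hypoxic tumour, was barely detected, with 28 counts over the parental libraries. It stood at 0.142, 0.623 and 3.29 CPM in laggers and at 2.1, 0.297 and 0.54 CPM in passage 1 leaders. The leaders held 2.15, 2.95 and 2.99 CPM at passage 2 and 1.99, 1.33 and 2.28 CPM at passage 3, and 1.83, 1.21 and 0.496 CPM at passage 4, against 0.174, 0.0255 and 0.74 CPM in parental cells. The leaders of passages 2 and 3 lay above the parental libraries, and the other groups overlapped them. Over the parental line, log2 fold changes were 2.12, 1.70, 3.15, 2.62 and 1.95 in laggers and leaders of passages 1 to 4, of which that of passage 2 was called (adjusted p = 0.0331), and that call ended without any 1 library of passage 2 or without parental replicate 1 or 2 (0.0504 to 0.105). Without parental replicate 3 the passage 2 value was 4.68, and CA9 was then called in laggers (3.65, 0.0319) and in leaders of passages 1 and 3 (3.23, 0.0454, and 4.15, 0.0318) as well. At passage 3 CA9 was also called by DESeq2 (2.58, 0.0366), without the filter on low counts (2.60, 0.0367) and with GC offsets (2.91, 0.0301). Without the 3 GC-leaning libraries it was called at passages 1, 3 and 4 (3.31, 4.38 and 3.49, adjusted p = 0.017, 0.012 and 0.0221).

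SLC16A3, which encodes the lactate exporter MCT4, was lower in the injected cells, but its value moved with base composition. It stood at 18.7, 31.1 and 49.2 CPM in laggers and at 30.4, 38.3 and 26.8 CPM in passage 1 leaders. Later leaders gave 32.3, 33.2 and 33.9 CPM (passage 2), 29.2, 35.7 and 22 CPM (passage 3) and 25.6, 17.7 and 19.7 CPM (passage 4), against 59.6, 42.1 and 99.9 CPM in the parental line. Lagger replicate 3 overlapped the parental range, and all leaders lay below it. The log2 fold changes over parental cells were −1.03, −1.08, −1.02, −1.22 and −1.68 in laggers and leaders of passages 1 to 4 (edgeR adjusted p from 0.00198 to 0.0307). With GC offsets they became −0.46, 0.00, −0.22, −0.58 and −0.98, and the calls in laggers (adjusted p = 0.0571), passage 1 (1) and passage 2 (0.398) ended. Without parental replicate 3 the calls in laggers and in leaders of passages 1, 2 and 3 ended as well (−0.63, −0.68, −0.62 and −0.82, adjusted p 0.104 to 0.204). Those calls also ended without lagger replicate 1 or 2, replicate 3 of passage 1, any 1 library of passage 2, or replicate 1 or 3 of passage 3 (adjusted p 0.0514 to 0.0814). Fitting only the compared groups ended the lagger call (0.139), and leaving out the 3 GC-leaning libraries ended those of passages 1 and 2 (0.059 and 0.0967).

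Glucose transporters and hexokinases went opposite ways. SLC2A3, the high-affinity transporter GLUT3, stood at 306, 279 and 227 CPM in laggers and at 254, 212 and 293 CPM in passage 1 leaders. Values were 183, 196 and 217 CPM at passage 2, 186, 162 and 188 CPM at passage 3 and 127, 118 and 87.9 CPM at passage 4, against 59.9, 67.8 and 59.9 CPM in the parental line. Every injected library exceeded every parental one, with the passage 4 leaders nearest to them. On the log2 scale, the differences from parental cells were 2.11, 2.02, 1.67, 1.51 and 0.83 (each ± 0.18) in laggers and leaders of passages 1 to 4 (edgeR adjusted p at most 0.00268). SLC2A1, the widely expressed transporter GLUT1, stood at 77.6, 283 and 222 CPM in laggers and at 378, 244 and 416 CPM in passage 1 leaders. The later leaders held 240, 272 and 231 CPM at passage 2, 166, 251 and 222 CPM at passage 3 and 135, 166 and 150 CPM at passage 4, against 120, 98.9 and 161 CPM in parental cells. Leaders of passages 1, 2 and 3 lay above the parental libraries, while laggers and passage 4 leaders overlapped them. It rose in leaders of passages 1 and 2 (1.45, adjusted p = 0.00295, and 0.97, adjusted p = 0.0422) and was not called in laggers (0.62), passage 3 (0.75) or passage 4 (0.25). The passage 2 call ended without any 1 library of passage 2 or without parental replicate 1 or 2 (adjusted p 0.0775 to 0.122), and with GC offsets SLC2A1 was called in laggers (0.85, 0.0256) and passage 3 (0.97, 0.018).

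**Figure D3:**
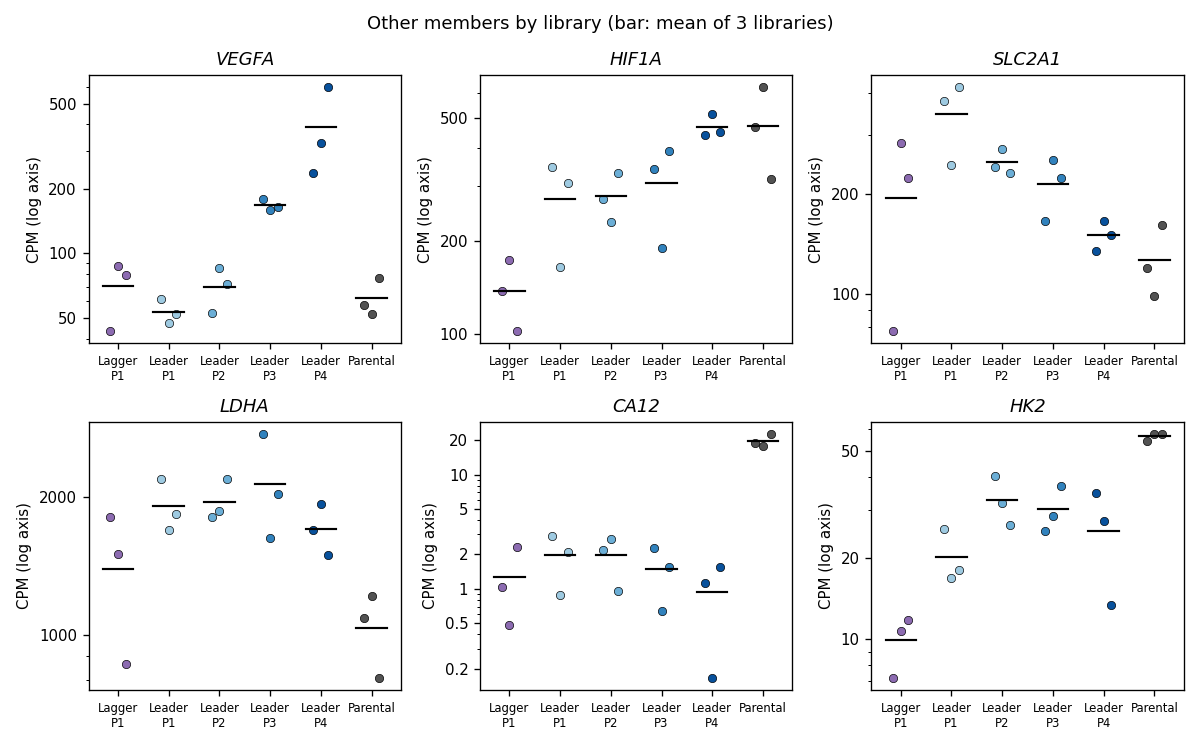
Level in CPM (log axis) of VEGFA, HIF1A, SLC2A1, LDHA, CA12 and HK2 in each library; points are libraries and bars are means of 3. VEGFA is highest in passage 4 leaders, HIF1A is lowest in laggers, and CA12 and HK2 lie below the parental libraries in every injected one.

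The hexokinases trap glucose in the cell by phosphorylation. HK1, the constitutive form, stood at 79.5, 109 and 112 CPM in laggers and at 74.3, 52.9 and 75.8 CPM in passage 1 leaders. The leaders held 102, 119 and 95.5 CPM at passage 2 and 118, 148 and 134 CPM at passage 3, and 170, 131 and 209 CPM at passage 4, against 220, 206 and 279 CPM in the parental line. Laggers and leaders of passages 1 to 3 lay below the parental libraries, and 1 passage 4 leader overlapped them. HK1 fell in laggers (−1.23 ± 0.21, edgeR adjusted p = 0.000319) and in leaders of passages 1, 2 and 3 (−1.80, −1.16 and −0.82, adjusted p at most 0.0099), and passage 4 gave −0.47 (0.106). The passage 3 call ended without replicate 1 of passage 3 (0.0523) or parental replicate 3 (0.0504). HK2, the hypoxia-inducible form, stood at 7.18, 10.7 and 11.8 CPM in laggers and at 25.5, 16.8 and 18.1 CPM in passage 1 leaders. Later leaders gave 40.1, 32.1 and 26.5 CPM (passage 2), 25.2, 28.6 and 37 CPM (passage 3) and 34.7, 27.5 and 13.4 CPM (passage 4), against 54.4, 57.7 and 57.4 CPM in parental cells. All injected libraries lay below the parental ones, the laggers lowest, with replicate 3 of passage 4 next above them.

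HK2 fell by 2.52 on the log2 scale in laggers (SE 0.32, edgeR adjusted p = 2.52e-05), and its log2 fold changes in passage 1 to 4 leaders were −1.49 (0.000971), −0.78 (0.06, not called), −0.90 (0.0384) and −1.17 (0.00943). The passage 3 call ended without replicate 1 or 2 of passage 3 or any 1 parental library (adjusted p 0.0647 to 0.146), with GC offsets (−0.68, 0.0863) and without the 3 GC-leaning libraries (−0.82, 0.141). The passage 2 value was called by DESeq2 (−0.78, 0.0372) and with only the compared groups (−0.74, 0.0261).

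Among the 15 glycolytic enzymes from hexokinase to lactate dehydrogenase, 0 were higher and 8 lower in laggers, and 2 and 7, 1 and 6, 1 and 5, and 1 and 2 were higher and lower in leaders of passages 1, 2, 3 and 4. Of all tested genes, 21.5, 23.2, 15.1, 13.8 and 14.8% were higher and 17.8, 22.4, 14.8, 10.8 and 12.9% lower in the same order. The 2 enzymes lower at passage 4 therefore lay near the share of all genes. The count moved with the libraries in the fit, as did that of all genes. With only the compared groups, 3 in place of 8 enzymes were lower in laggers and 2 in place of 5 at passage 3. Of all genes, 22.9 in place of 39.3% were then called either way in laggers and 19.9 in place of 24.6% at passage 3. With GC offsets 10, 5, 4, 5 and 2 enzymes were lower and, at passage 4, 4 in place of 1 were higher. The share of all genes called either way was then 46.1, 47.5, 34.2, 32.1 and 34.6%, in place of 39.3, 45.7, 29.9, 24.6 and 27.7%.

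PKM, pyruvate kinase, makes pyruvate and ATP in the last step of glycolysis, and the counts do not separate its muscle and tumour isoforms. It stood at 1500, 1523 and 2182 CPM in laggers and at 1477, 1396 and 1398 CPM in passage 1 leaders. Values were 1813, 2122 and 1976 CPM at passage 2, 2446, 2436 and 2282 CPM at passage 3 and 3430, 3322 and 4503 CPM at passage 4, against 3271, 3029 and 4227 CPM in the parental line. Laggers and leaders of passages 1, 2 and 3 lay below the parental libraries, and the passage 4 leaders stood in the parental range or above it. Log2 fold changes were −1.02, −1.30, −0.83 and −0.56 in laggers and leaders of passages 1, 2 and 3 (edgeR adjusted p = 0.000298, 2.93e-05, 0.00198 and 0.0263) and 0.10 at passage 4 (0.712). The passage 3 call ended without replicate 1 or 3 of passage 3 (0.0638 and 0.083) or parental replicate 3 (−0.40, 0.133), with only the compared groups (0.0838) and without the 3 GC-leaning libraries (0.0972), and with GC offsets passage 4 was called higher (0.30, 0.0392).

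GPI, which turns glucose 6-phosphate into fructose 6-phosphate, stood at 538, 542 and 654 CPM in laggers and at 535, 486 and 497 CPM in passage 1 leaders. The later leaders held 670, 648 and 568 CPM at passage 2, 583, 716 and 748 CPM at passage 3 and 1012, 1064 and 1616 CPM at passage 4, against 862, 769 and 1119 CPM in parental cells. The passage 4 leaders overlapped the parental range and the other injected groups lay below it. GPI fell in laggers and leaders of passages 1 and 2 (−0.67, −0.86 and −0.54, edgeR adjusted p = 0.0112, 0.00178 and 0.0397). The lagger call ended without parental replicate 3 (0.0589), the passage 2 call without any 1 library of passage 2 or parental replicate 1 or 3 (0.0547 to 0.195), and GC offsets ended those of passage 1 (−0.32, 0.0539) and passage 2 (−0.21, 0.232). Fitting only the compared groups ended the lagger and passage 2 calls (0.0802 and 0.0645), as did leaving out the 3 GC-leaning libraries (0.0575 and 0.188), and the passage 2 call also ended without the filter on low counts (0.0587). At passage 4 GPI was called in the opposite direction with GC offsets (0.73, 0.00049) and without the 3 GC-leaning libraries (0.61, 0.0336), while the fit of all libraries without offsets gave 0.42, not called.

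The phosphofructokinases PFKL and PFKP commit sugar to glycolysis. PFKL stood at 431, 399 and 577 CPM in laggers and at 295, 291 and 328 CPM in passage 1 leaders. The leaders held 490, 522 and 452 CPM at passage 2 and 495, 657 and 481 CPM at passage 3, and 534, 479 and 663 CPM at passage 4, against 642, 563 and 1093 CPM in the parental line. Passage 1 and 2 leaders lay below the parental libraries and the other groups overlapped them. Its calls in laggers (−0.71, edgeR adjusted p = 0.0216), passage 1 (−1.33, 0.000264) and passage 2 leaders (−0.65, 0.0408) all ended with GC offsets, at 0.02 (0.901), −0.17 (0.34) and 0.22 (0.249). Without parental replicate 3, the most GC-rich library, the lagger and passage 2 values were −0.37 (0.161) and −0.31 (0.304), and those calls also ended without lagger replicate 2 or any 1 library of passage 2 (0.0715 to 0.128) and with only the compared groups (0.145 and 0.0871). The passage 2 call ended without the 3 GC-leaning libraries too (−0.28, 0.189). PFKP stood at 159, 193 and 260 CPM in laggers and at 173, 171 and 210 CPM in passage 1 leaders. Later leaders gave 214, 193 and 175 CPM (passage 2), 205, 237 and 233 CPM (passage 3) and 273, 245 and 378 CPM (passage 4), against 350, 288 and 494 CPM in parental cells. Only the passage 4 leaders overlapped the parental range. PFKP fell in laggers and leaders of passages 1, 2 and 3 (−0.89, −1.03, −0.96 and −0.75, adjusted p = 0.00553, 0.00158, 0.00476 and 0.0231), and the passage 3 call ended without any of replicates 1 and 3 of passage 3 and parental replicate 3 (0.0526 to 0.138). Fitting only the compared groups ended the lagger call (0.067) and that of passage 3 (0.0572), which also ended without the 3 GC-leaning libraries (0.105).

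PFKFB3, the bifunctional enzyme that makes the phosphofructokinase activator fructose 2,6-bisphosphate, ranged from 30.8 to 70.4 CPM in the 15 injected libraries, against 91.1, 82 and 110 CPM in the parental line. The ranges did not overlap. Over the parental line, log2 fold changes were −1.14, −1.18, −1.15, −0.91 and −0.77 in laggers and leaders of passages 1 to 4 (edgeR adjusted p = 0.00254, 0.00147, 0.00339, 0.0156 and 0.0323). The passage 3 call ended without replicate 1 of passage 3 (0.0817) or parental replicate 3 (0.0662) and without the 3 GC-leaning libraries (0.0608). The passage 4 call ended without replicate 1 or 2 of passage 4 or parental replicate 1 or 3 (0.0517 to 0.153), with GC offsets (−0.41, 0.0836), with only the compared groups (0.0634) and without the 3 libraries (0.0867), and GC offsets brought the passage 1 value to −0.53. Its relative PFKFB4 was called in no comparison, although at passage 4 it was called higher by DESeq2 (0.88, adjusted p = 0.0398), with GC offsets (1.22, 0.00293) and without the 3 GC-leaning libraries (1.18, 0.0331). GC offsets also called it higher at passages 1 and 2 (0.79, 0.0272, and 0.77, 0.0397).

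ENO1, the main enolase, stood at 3318, 3536 and 4189 CPM in laggers and at 3538, 3099 and 3287 CPM in passage 1 leaders. Values were 4152, 4387 and 3960 CPM at passage 2, 4063, 4159 and 3522 CPM at passage 3 and 3726, 3797 and 3920 CPM at passage 4, against 5488, 4889 and 6432 CPM in the parental line. All injected libraries lay below the parental ones. The log2 fold changes over parental cells were −0.61, −0.76, −0.43, −0.52 and −0.55 in laggers and leaders of passages 1 to 4 (edgeR adjusted p = 0.00195, 0.000263, 0.0222, 0.00941 and 0.00551), and the passage 2 call ended without replicate 1 or 3 of passage 2 or parental replicate 3 (0.056 to 0.105), without the filter on low counts (0.0879) and without the 3 GC-leaning libraries (0.0781). With only the compared groups in the fit, the calls in laggers (0.0864) and at passages 2, 3 and 4 (0.079, 0.0944 and 0.0516) ended. ENO2, the neuronal enolase, was lower in laggers (−0.76, adjusted p = 0.0323), a call that ended without lagger replicate 1 or parental replicate 1 or 3 (0.0519 to 0.11), with only the compared groups (0.184) and without the 3 libraries (0.0682). With GC offsets ENO2 was called higher at passages 3 and 4 (0.58, 0.0353, and 0.84, 0.00421).

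LDHA, which reduces pyruvate to lactate, was higher in the leaders. It stood at 1810, 1501 and 865 CPM in laggers and at 2193, 1694 and 1841 CPM in passage 1 leaders. The later leaders held 1811, 1861 and 2189 CPM at passage 2, 2747, 1627 and 2035 CPM at passage 3 and 1695, 1929 and 1493 CPM at passage 4, against 1088, 1215 and 807 CPM in parental cells. Every leader library lay above the parental range, and lagger replicate 3 lay within it. On the log2 scale, the differences from parental cells were 0.88, 0.91, 1.04 and 0.72 in passage 1 to 4 leaders (edgeR adjusted p = 0.00847, 0.0113, 0.00627 and 0.0398) and 0.43 in laggers (0.181; 0.73, adjusted p = 0.0192, without lagger replicate 3, and 0.58, 0.0345, without the 3 GC-leaning libraries). The passage 2 call ended without parental replicate 3 (0.0616), and the passage 4 call without any 1 library of passage 4 or parental replicate 1 or 3 (0.0519 to 0.164), without the filter on low counts (0.0657) and without mitochondrially encoded genes (0.0512). With GC offsets the passage 1 value was 0.49 (0.0123). PDK1, the kinase that shuts off pyruvate dehydrogenase and so limits the oxidation of pyruvate in the mitochondrion, was higher in passage 1 leaders (0.81, edgeR adjusted p = 0.0169). That call ended without replicate 1 or 3 of passage 1 or parental replicate 1 or 3 (0.0519 to 0.0829), and without the filter on low counts (0.0631).

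Several enzymes, some of them among the most abundant, were not called. GAPDH, which makes the first NADH of glycolysis, TPI1, the aldolases ALDOA and ALDOC, and the mutase PGAM1 passed the threshold in no comparison with the parental line. With GC offsets each did in 1 group: GAPDH, ALDOC and PGAM1 were lower in laggers (−0.30, −0.73 and −0.45, edgeR adjusted p at most 0.0293), ALDOA was lower at passage 3 (−0.36, 0.0125) and TPI1 higher at passage 2 (0.30, 0.0232). ALDOC was also called lower in laggers without the 3 GC-leaning libraries (−0.85, 0.0338). PGK1, which yields the first ATP of glycolysis, was called in passage 1 leaders alone (0.40, edgeR adjusted p = 0.0156), a call that ended without replicate 1 of passage 1 (0.0841) or parental replicate 3 (0.0607), without the filter on low counts (0.216) and with only the compared groups (0.0969). Per kilobase of exon, GAPDH was the most abundant member in each group, at 2700 CPM per kb in laggers, 2522, 2519, 2644 and 2274 CPM per kb in passage 1 to 4 leaders, and 2951 CPM per kb in the parental line. TPI1 followed at 966 to 1161 CPM per kb, with ALDOA at 685 to 937 and ENO1 at 627 to 1062. PKM per kilobase lay at 166 in passage 1 leaders and at 438 in passage 4 leaders, against 409 in the parental line, and LDHA lay at 307 and 275 in those leaders against 167.

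**Figure D4:**
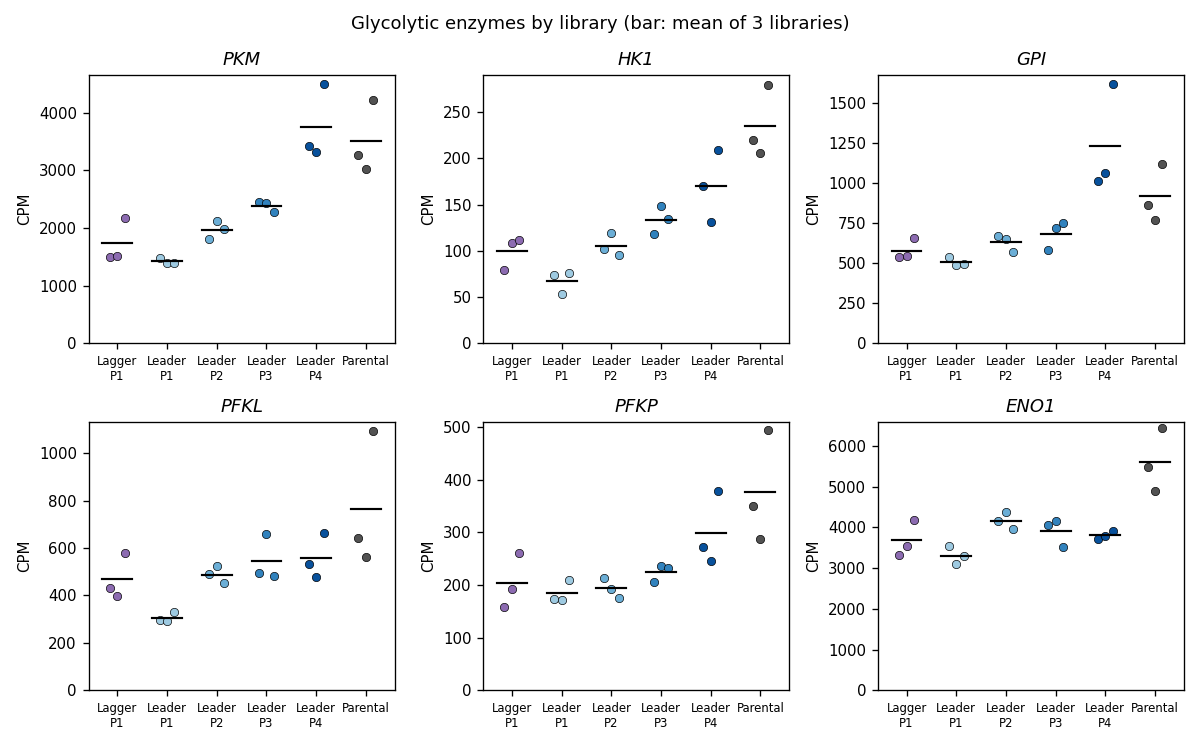
Level in CPM of PKM, HK1, GPI, PFKL, PFKP and ENO1 in each library; points are libraries, bars are means of 3, and each axis starts at 0. PKM, HK1, GPI, PFKL and PFKP are lowest on average in passage 1 leaders or laggers and higher at passage 4, while ENO1 stays below the parental libraries at every passage.

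Passage 1 leaders and laggers share the first passage, so their contrast asks what separates leader from lagger cells without further rounds of injection. None of the 39 members was called higher or lower by edgeR (background 0.0185% and 0.0432%, or 10 genes in all). The median log2 difference was 0.12 for members and −0.06 for all tested genes. The largest differences were in EPAS1 (−1.76 ± 0.70, adjusted p = 0.286), INSIG2 (1.24 ± 0.41, 0.221) and HK2 (1.03 ± 0.31, 0.185), and HIF1A gave 0.99 ± 0.32 (0.211), SLC2A1 0.83 ± 0.34 (0.3), LDHA 0.46 ± 0.25 (0.39), VEGFA −0.39 ± 0.31 (0.527) and CA9 −0.42 ± 0.98 (0.842). These intervals are wide: that of HIF1A ran from 0.32 to 1.66 and that of VEGFA from −1.05 to 0.26. HILPDA came nearest to a call (0.83 ± 0.20, adjusted p = 0.108), with 42.8, 69.2 and 50.7 CPM in leaders and 25.9, 31.3 and 34.6 CPM in laggers, which do not overlap. DESeq2 called HILPDA (0.85, adjusted p = 0.00314) and HK2 (1.05, 0.0388), and the fit with GC offsets called HILPDA (0.84, 0.0327) and ENO2 (0.98, 0.0423).

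Between passage 4 and passage 1 leaders members were called in both directions. Of the 15 glycolytic enzymes 5 were higher and 10 were not called, and of 10 secreted and signalling targets 1 was higher, 3 were lower and 6 were not called. By edgeR, 6 members (15.4%) were higher, where 10.8% of all tested genes were: VEGFA, PKM, HK1, GPI, PFKL and PFKP. Another 6 (15.4%) were lower, where 9.17% of all tested genes were: ADM, ANKRD37, SLC2A1, SLC2A3, PDK1 and HILPDA. VEGFA had the largest change, at 236, 328 and 598 CPM in passage 4 and 60.9, 47.4 and 52.1 CPM in passage 1 (log2 fold change 2.86 ± 0.33, adjusted p = 4.38e-05). PKM rose by 1.40 ± 0.17 (8.12e-05), HK1 by 1.33 ± 0.21 (0.00059), GPI by 1.28 ± 0.19 (0.000375), PFKL by 0.88 ± 0.23 (0.0137) and PFKP by 0.69 ± 0.22 (0.0383). Downwards, ADM fell by 1.90 (SE 0.41, 0.00474), ANKRD37 by 1.46 (SE 0.25, 0.00109), SLC2A1 by 1.20 (SE 0.34, 0.0221), SLC2A3 by 1.19 (SE 0.18, 0.000339), PDK1 by 0.77 (SE 0.26, 0.0456) and HILPDA by 0.66 (SE 0.20, 0.0302). DDIT4 was not called (0.01 ± 0.23, adjusted p = 0.991, 95% interval −0.48 to 0.49). HIF1A gave 0.78 (0.0918), EPAS1 0.66 (0.536), LDHA −0.16 (0.683), CA9 0.24 (0.888) and EGLN3 −2.0 (0.0531), none of them called. EGLN3 was called by 7 alternatives (−2.0 to −2.11): DESeq2 (0.0122), median-of-ratios size factors (0.0499), no filter on low counts (0.0424), GC offsets (0.0402), only the compared groups (0.0238), the replicate block (0.044) and leaving out the 3 GC-leaning libraries (0.0172). HIF1A was called with GC offsets (0.85, 0.0158) and without the 3 libraries (0.73, 0.0358). P4HA1 was called lower with GC offsets, with only the compared groups and without the 3 libraries (−0.77, −0.90 and −0.92, adjusted p at most 0.0123). SLC16A3 was called lower with GC offsets and without the 3 libraries (−0.98, 0.00148, and −0.64, 0.0468), and ALDOC by DESeq2, with only the compared groups and without the 3 libraries (−0.72, −0.72 and −0.73, adjusted p at most 0.0477). With only the compared groups NDRG1 (1.3, 0.0242) and ENO2 (0.64, 0.0271) were called higher, and with GC offsets ENO2 (0.60, 0.0354) and ENO1 (0.23, 0.0474).

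Of those 12 calls, 7 held without any 1 library: ADM, VEGFA, ANKRD37, SLC2A3, HK1, GPI and PKM. PFKL was lost without replicate 3 of passage 4 (adjusted p = 0.0671), and PFKP without any of the 3 libraries of passage 1 or replicate 1 or 3 of passage 4 (0.0538 to 0.196). SLC2A1 was lost without replicate 1 or 3 of passage 1 or of passage 4 (0.062 to 0.0817). PDK1 was lost without replicate 1 or 3 of passage 1 or any 1 library of passage 4 (0.0693 to 0.149), and HILPDA without replicate 2 or 3 of passage 1 or any 1 library of passage 4 (0.0578 to 0.129) and with GC offsets (−0.33, 0.122). Without the filter on low counts PDK1 and HILPDA were both lost (0.113 and 0.108), and without mitochondrially encoded genes PDK1 was (0.0503). The fibroblast marker sum was also lower in passage 4 than in passage 1 leaders (234 to 496 against 1009 to 2311 CPM), as was the mitochondrial share of counts, 1.948 to 3.33% against 5.602 to 8.575%, and their part in these differences was not tested.

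A slope over the 4 leader passages uses all 12 leader libraries and shares those of passages 1 and 4 with the contrast just given. By edgeR 7 members had a positive slope and 5 a negative one (background 11.7% and 9.38%). Per passage on the log2 scale, the positive slopes were VEGFA 0.98 ± 0.10 (adjusted p = 1.58e-05), PKM 0.45 ± 0.05 (6.07e-05), HK1 0.43 ± 0.07 (0.000409), GPI 0.40 ± 0.06 (0.000379), PFKL 0.28 (0.0126), ENO2 0.25 (0.0418) and PFKP 0.23 (0.0304). The negative slopes were EGLN3 −0.71 (0.032), ADM −0.60 (0.00432), ANKRD37 −0.47 (0.000824), SLC2A1 −0.38 (0.0205) and SLC2A3 −0.37 (0.000313). The path was not even: ADM averaged 184 CPM at passage 1 and then 47.9, 39.1 and 49.2 CPM at passages 2, 3 and 4, while VEGFA averaged 53.4 and 70 CPM at passages 1 and 2 and then 167 and 387 CPM. ENO2's slope was lost without any 1 of 11 leader libraries (all but replicate 1 of passage 2, adjusted p 0.0508 to 0.156) and with median-of-ratios size factors (0.0507), EGLN3's without any of 6 (each of passage 1, replicate 3 of passage 2 and replicates 2 and 3 of passage 4, up to 0.1), SLC2A1's without replicate 1 or 3 of passage 1 or of passage 4 (up to 0.0723), PFKP's without replicate 1 or 2 of passage 1 or replicate 3 of passage 4 (up to 0.153) and PFKL's without replicate 3 of passage 4 (0.0594). Negative slopes of P4HA1, PDK1, SLC16A3 and HILPDA were each called by 3 to 5 alternatives, GC offsets among them for the first 3 (−0.28, 0.00561, then −0.27, 0.00305, and −0.33, 0.000889) and DESeq2 for HILPDA (−0.19, 0.0139). That of HIF1A was called positive with GC offsets (0.29, 0.00976) and without the 3 GC-leaning libraries (0.26, 0.0236). That of NDRG1 was called positive with only the compared groups (0.41, 0.006) and without the filter on low counts (0.43, 0.0432), and that of ALDOC negative with only the compared groups (−0.22, 0.021).

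Base composition moved with the groups. Genes of low GC content (up to 42.5%) had a median log2 fold change of 0.53 in passage 1 leaders against the parental line. Those of high GC content (from 56.7%) had −0.54. For laggers these medians were 0.16 and −0.11. For leaders of passages 2, 3 and 4 they were 0.35 and −0.52, 0.21 and −0.34, and 0.38 and −0.38. For passage 1 leaders against laggers they were 0.37 and −0.42, and for passage 4 against passage 1 leaders −0.12 and 0.15. The 3 GC-leaning libraries, lagger replicate 3, passage 3 replicate 2 and parental replicate 3, leaned to GC-rich genes by 1.26, 0.73 and 1.35 on the log2 scale, where the others lay between −0.50 and 0.35. Each also had the largest share of unaligned reads in its own group (16.52, 24.79 and 10.11%), although 4 other libraries had more than parental replicate 3. In all 3, HIF1A, INSIG2, KDM3A, P4HA1, BNIP3L, SLC2A3, PGK1, LDHA and PDK1 stood lowest of their group, and DDIT4, P4HA2, SLC16A3, HK1, PFKP, PFKL, ALDOA, ENO1 and ENO2 highest, which is 9 and 9 of 39 members where 22.8% and 22.3% of all tested genes did so. With offsets for GC content and length, calls of ADM, ANKRD37, EGLN3, DDIT4, NDRG1, SLC2A3, CA12 and ENO1 against the parental line kept their sign and threshold in each group, and so did the passage 4 against passage 1 calls of VEGFA, PKM, HK1, GPI, ADM, ANKRD37 and SLC2A3.

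**Figure D5:**
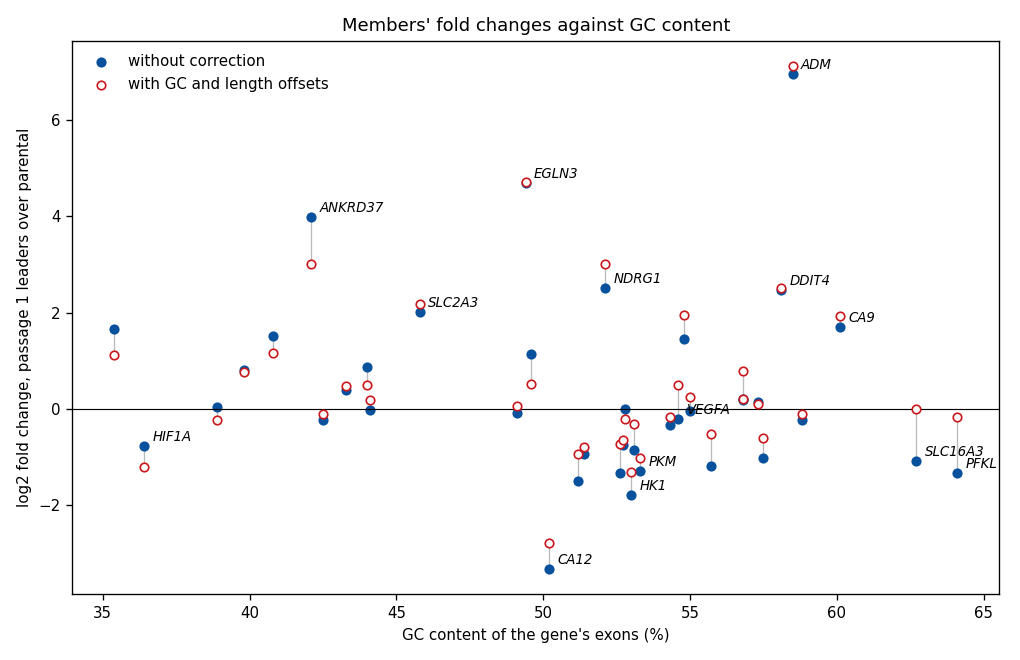
Log2 fold change (y) of passage 1 leaders over the parental line, for each tested member, by GC content (x, %) of its longest transcript. Values are from the fit without and with offsets for GC content and length. ADM, ANKRD37 and EGLN3 stay high in both, while SLC16A3 moves from −1.08 to 0.00 and PFKL from −1.33 to −0.17.

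Other genes of the pathway, from lists chosen with earlier results of these data known, were counted in the same fit. Each count is to be read against all tested genes, of which 21.5, 23.2, 15.1, 13.8 and 14.8% were higher and 17.8, 22.4, 14.8, 10.8 and 12.9% lower in laggers and passage 1 to 4 leaders over the parental line. Of 13 tested regulators of HIF, 6 were higher and 3 lower in laggers, and 4 and 3, 2 and 3, 3 and 2, and 5 and 1 in passage 1 to 4 leaders, or 46.2, 30.8, 15.4, 23.1 and 38.5% higher and 23.1, 23.1, 23.1, 15.4 and 7.69% lower. CITED2, which competes with HIF for the coactivator p300 and is induced by it, rose in each injected group, with 21.6, 37.6 and 135 CPM in laggers and 36.2 to 163 CPM in leaders, against 6.12, 5.39 and 4.81 CPM in the parental line (log2 fold changes 3.57, 3.25, 3.98, 4.62 and 4.28, edgeR adjusted p at most 8.86e-05). HIF1AN, the asparaginyl hydroxylase that blocks the HIF transactivation domain, fell in laggers and leaders of passages 1 and 2 (−0.79, −0.98 and −0.58, adjusted p at most 0.0102). USP20, a deubiquitinase, was lower in laggers and passage 1 and 4 leaders (−0.98, −1.75 and −1.08, adjusted p at most 0.0047), and RBX1, a subunit of the ubiquitin ligase that holds the von Hippel-Lindau protein, was higher in laggers and passage 1 leaders (1.64 and 1.96, adjusted p at most 0.00126). RBX1 was also called at passages 3 and 4 (0.96, 0.0439, and 0.99, 0.0348), calls that ended with GC offsets (0.067 and 0.0854) and without any of 5 libraries each (up to 0.19 and 0.175). USP20 moved to −0.41, −0.81 and −0.53 with GC offsets and stayed called, while its calls at passages 2 and 3 (−0.98 and −0.68) ended at −0.33 and −0.16 (adjusted p = 0.13 and 0.498).

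Of 27 further hypoxia-induced genes tested, 5, 5, 4, 3 and 7 were higher and 4, 4, 6, 2 and 3 lower in laggers and leaders of passages 1 to 4. The shares higher, 18.5, 18.5, 14.8, 11.1 and 25.9%, lay under those of all genes except at passage 4. BHLHE40, a transcriptional repressor of the DEC family, rose in each injected group: 187 to 352 CPM in laggers and 191 to 409 CPM in leaders, against 29.5, 31.1 and 29.9 CPM in the parental line (3.19, 3.29, 3.15, 3.17 and 2.99, edgeR adjusted p at most 1.85e-06). FAM162A, a mitochondrial protein, rose in laggers and leaders of passages 1, 2 and 3 (1.22, 1.88, 1.28 and 1.09, adjusted p at most 0.0121, up to 0.0657 at passage 3 without its replicate 1 or parental replicate 3) and was lower in passage 4 than in passage 1 leaders (−1.27, 0.00681; 0.0504 without replicate 3 of passage 4). RRAGD, a GTPase that signals to mTORC1, rose in passage 1 to 4 leaders (1.27, 1.27, 1.22 and 1.65, adjusted p at most 0.00354) and in laggers (0.69, 0.0489), where the call ended without lagger replicate 1 or 2 or parental replicate 1 or 3 (up to 0.184). TXNIP, a brake on glucose uptake, fell in each injected group (−0.75, −0.61, −0.88, −1.06 and −1.73, adjusted p = 0.0196, 0.0451, 0.0107, 0.00422 and 0.000103). The TXNIP calls in laggers and passage 1 leaders ended without lagger replicate 2, any 1 library of passage 1 or parental replicate 1 or 2 (up to 0.0779 and 0.188).

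Of 12 other glycolysis isozymes tested, 5, 6, 3, 2 and 1 were higher and 3, 2, 2, 2 and 3 lower in laggers and leaders of passages 1 to 4, with 41.7, 50, 25, 16.7 and 8.33% higher and 25, 16.7, 16.7, 16.7 and 25% lower. HKDC1, a hexokinase-like enzyme, was nearly lost: 3.21, 0.0958 and 0.07 CPM in laggers and 0.165 to 4.43 CPM in leaders, against 144, 130 and 178 CPM in the parental line (log2 fold changes −6.99, −7.05, −6.18, −5.83 and −7.67, edgeR adjusted p at most 0.000925). PFKM, the muscle phosphofructokinase, fell in each injected group (−0.90, −1.40, −0.97, −0.87 and −1.29, adjusted p at most 0.00392). ENO3, the muscle enolase, rose in each (5.62, 3.32, 2.90, 2.27 and 2.46, adjusted p at most 0.00218) and was highest in laggers, at 160, 64.1 and 82.7 CPM, against 2.56, 1.56 and 2.11 CPM in the parental line. SLC2A2, the liver and beta-cell glucose transporter, was at 0.614 to 1.25 CPM in laggers, 2.78 to 7.67 CPM in passage 1 leaders and 0 to 13 CPM in later leaders, against 0 CPM in all 3 parental libraries. Of 14 tested genes of pyruvate and lactate handling, 2, 1, 1, 2 and 1 were higher and 4, 3, 2, 3 and 1 lower, with 14.3, 7.14, 7.14, 14.3 and 7.14% higher and 28.6, 21.4, 14.3, 21.4 and 7.14% lower. PDP2, a phosphatase that reactivates pyruvate dehydrogenase, fell in laggers and leaders of passages 1, 2 and 3 (−2.19, −2.52, −1.39 and −1.20, adjusted p at most 0.0286), was not called at passage 4 (−0.04, 0.958), and rose by 2.48 between passage 1 and passage 4 leaders (0.000566). PDHX, a structural subunit of that complex, fell in each injected group (−1.68, −1.42, −1.09, −1.05 and −0.94, adjusted p at most 0.0216). The passage 2 call of PDP2 ended without replicate 1 of passage 2 (0.0519), and its passage 3 call without replicate 1 or 2 of passage 3 or parental replicate 1 or 2 (up to 0.108). The PDHX calls at passages 3 and 4 ended without parental replicate 1 or 2, replicate 2 of passage 3 or any 1 library of passage 4 (up to 0.0682 and 0.0948).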

How the data were processed

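Total RNA of 18 MiaPaCa-2 libraries was amplified with a full-length cDNA kit that does not mark strand and read as paired ends, per the labels' protocols. The authors deposited 1 table of raw counts per gene; cutadapt 1.6, STAR 2.5.0a, HTSeq 0.5.3 and DESeq 1.22.1 are named in the submitters' processing notes, while the sources used here do not name the genome build or annotation release. The 5 entries that name no gene (27.55 to 60.64% of each library) stayed out of library sizes and tests.

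From the counts, edgeR 4.0.16 (R 4.3.3) fitted 1 quasi-likelihood model to the 6 groups with TMM scaling after filterByExpr, leaving 16187 genes and 12 residual degrees of freedom, with Benjamini-Hochberg adjustment over all of them and a threshold of 0.05. The method was tested on simulated counts. The biological coefficient of variation was 35.5%. A slope over the 4 leader passages came from the same fit. The 40 members and all lists were chosen with earlier results of these data known. Per comparison, up to 5 called members in each direction with the largest change and at least 5 CPM were named, and HIF1A, EPAS1, SLC2A1, LDHA, VEGFA and CA9 throughout; other members are given where a call or its loss bears on the account.

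Alternatives were median-of-ratios size factors, DESeq2 1.42.0, no filter, a replicate block, only the compared groups in the fit, mitochondrial genes left out, pseudogene counts added, and each library left out in turn. Chosen after seeing the data were offsets and leaving out the 3 GC-leaning libraries. The offsets used the GC content and length of each gene's longest transcript (GENCODE 29, lowess span 0.3, 15793 genes). Intervals on count ratios (95%) cover counting error only.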

Additional observations from a re-analysis of the deposited data

Results flagged for a closer look

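The 12 members called between passage 4 and passage 1 leaders are also those whose change against the parental line differed between these passages, since the parental term is common to both and drops out of the difference. The differences below are log2 values of passage 4 minus passage 1 leaders, tested as contrasts in the edgeR fit. VEGFA differed most, by 2.86 (2.64 at passage 4 and −0.21 at passage 1 over the parental line). Among the enzymes and hexokinase, the difference was 1.40 for PKM (0.10 and −1.30), 1.33 for HK1 (−0.47 and −1.80), 1.28 for GPI (0.42 and −0.86), 0.88 for PFKL (−0.46 and −1.33) and 0.69 for PFKP (−0.34 and −1.03).

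The other members differed in the opposite direction. ADM gave −1.90 (5.05 at passage 4 and 6.96 at passage 1), ANKRD37 −1.46 (2.52 and 3.99), SLC2A1 −1.20 (0.25 and 1.45), SLC2A3 −1.19 (0.83 and 2.02), PDK1 −0.77 (0.05 and 0.81) and HILPDA −0.66 (0.48 and 1.14). The calls of PFKL, PFKP, SLC2A1, PDK1 and HILPDA each ended when 1 library was left out, as given above.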

How the results depend on the processing

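The counts of members called moved by over 1.5 times under few alternatives. With only the compared groups in the fit, 11 in place of 19 were called in laggers against the parental line, and 3355 in place of 6363 of all genes. Between passage 1 leaders and laggers, where 0 were called, DESeq2 called 2 and GC offsets 2, and of all genes 372 and 99 in place of 10; the cause was not tested. Leaving out 1 library gave 15 to 21 members in laggers, 21 to 23, 12 to 18, 10 to 17 and 11 to 14 in leaders of passages 1 to 4 against the parental line, 0 to 0 between passage 1 leaders and laggers, 7 to 11 between passages 4 and 1 and 7 to 12 for the slope. Replicate numbers did not pair the libraries: the correlation of same-numbered deviations ran from −0.60 to 0.56 and 7 of 18 libraries correlated best with their own number. With the replicate block, 19, 23, 20, 16, 14, 0, 12 and 11 members were called in the same order of comparisons. The block ended the calls of HK2 (adjusted p = 0.0549) and HILPDA (0.052) at passage 3, of PDK1 (0.068) between passages 4 and 1 and of ENO2 (0.0595) for the slope, and gave a call of EGLN3 between passages 4 and 1 (−2.11, 0.044).

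Some values that were not called changed sign. CA9 between passage 1 leaders and laggers (−0.42) was 0.16 with GC offsets, 1.38 without the 3 GC-leaning libraries, and −1.64 to 1.37 with 1 library left out. Its slope (0.02) was 0.00 with only the compared groups and −0.12 to 0.39 with 1 library left out, and its difference between passages 4 and 1 (0.24) was −0.22 to 1.47. EPAS1 at passage 3 (−0.26) was 0.08 with GC offsets, 0.44 without the 3 libraries, and −0.47 to 0.15 with 1 left out. With 1 left out, EPAS1 was −0.76 to 0.95 in laggers and −0.12 to 0.94 between passages 4 and 1. HIF1A at passage 4 (−0.01) was 0.02 with only the compared groups and −0.23 to 0.25 with 1 left out. With GC offsets LDHA was 0.02 for the slope and 0.00 between passages 4 and 1, and VEGFA at passage 1 was 0.50, or 0.03 without the 3 libraries. VEGFA in laggers was −0.02 to 0.41 with 1 left out. Over the 39 members and 8 comparisons, calls gained and lost were 11 and 0 with DESeq2, 35 and 12 with GC offsets, 14 and 19 with only the compared groups, 6 and 8 without the filter, and 22 and 15 without the 3 GC-leaning libraries. Adding pseudogene counts ended no named call. Depth limits members of few counts: a library held 0 to 3 counts of STC2, 0 to 21 of BNIP3, 1 to 81 of CA9 and 0 to 199 of EGLN3.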

Other observations

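Enzymes of the pentose phosphate pathway, which draws on the same sugar phosphates, and enzymes of gluconeogenesis were counted in the same fit. Of 10 tested, 0, 0, 1, 0 and 0 were higher and 6, 6, 6, 5 and 4 lower in laggers and leaders of passages 1 to 4, where 17.8, 22.4, 14.8, 10.8 and 12.9% of all tested genes were lower. Pyruvate carboxylase, PC, stood at 7.75, 11.2 and 7.7 CPM in laggers and 2.58 to 18.2 CPM in leaders, against 58.1, 54.5 and 79.1 CPM in the parental line (log2 fold changes −2.85, −4.17, −2.61, −2.31 and −2.83, edgeR adjusted p at most 0.000338). PCK2, the mitochondrial phosphoenolpyruvate carboxykinase, stood at 38.8 to 84.7 CPM in laggers and 29.5 to 54.6 CPM in leaders, against 233, 196 and 277 CPM in parental cells (−2.11, −2.65, −2.22, −2.43 and −2.46). Injected and parental ranges did not overlap for either gene. Transketolase, TKT, fell by 1.02 in laggers and by 1.46, 1.12, 1.20 and 1.26 in leaders on the log2 scale, and by 0.56, 0.63, 0.57, 0.84 and 0.80 with GC offsets.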
